A study of Mus musculus with 140 samples.

Results

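MicroRNAs (miRNAs) of renal post-capillary venules were compared 4 h after the onset of abdominal sepsis. The comparison takes 8 libraries, the 4 from venules after cecal ligation and puncture (CLP) at 4 h and the 4 from venules after sham operation at 4 h, out of 140 libraries in all. The 1474 miRNAs in the table were counted in each. CLP ties off and pierces the cecum so that gut bacteria reach the abdomen. Sham mice had the operation without sepsis. All mice were male wild-type (WT) C57BL6/OlaHsd mice, the tissue was kidney, and the venules were cut out by laser microdissection. The 8 libraries come from 8 mice, and each mouse also gave libraries of arterioles, glomeruli, peritubular capillaries and whole kidney. For context, 4 venule libraries of healthy, unoperated mice (0 h) and 16 venule libraries of CLP and sham mice at 24 h and 72 h were used.

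Post-capillary venules drain the capillary bed and are the main site at which leukocytes leave the blood in inflammation. Their wall is endothelium with few mural cells, and blood cells can remain in the lumen of cut tissue. A miRNA guides an Argonaute protein to messenger RNAs through its seed, a short stretch near its 5′ end, and lowers their stability or translation. In endothelium, miR-126 and the miR-23, miR-24, miR-27, miR-221 and miR-222 group are well known. miR-146a and miR-155 are known as induced by NF-kB signalling, and miR-21 as raised in injured kidney.

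At 4 h no miRNA passed the test in CLP against sham venules. Of 285 miRNAs with enough counts to be tested, 0 were higher and 0 lower (0% called; edgeR quasi-likelihood test, Benjamini-Hochberg adjusted p under 0.05). Without adjustment, 18 of 285 had p under 0.05 (6.32%), of which 12 were higher (4.21%) and 6 lower (2.11%) in CLP. The groups did not overlap for 1 miRNA, miR-15b-5p, which was higher in all 4 CLP libraries (0.351% of those tested). DESeq2 on the same libraries called 1 miRNA higher, miR-874-5p (adjusted p = 0.0124), and 1 lower, miR-30c-1-3p (adjusted p = 0.0187), both read from few counts. The median log2 fold change over all tested miRNAs was 0.00032, with 143 above 0 and 142 below. The spread between mice in this test was shared over all 28 venule libraries. With the 8 libraries alone, 1 of 168 tested miRNAs had an unadjusted p under 0.05, and with the 12 healthy and 4 h libraries, 0 of 185. The filter on counts was applied again in each of these fits, so they do not isolate the effect of the shared spread. The leading miRNAs named below did not pass the filter with the 8 libraries alone, and with the 12 only miR-365-2-5p did. They were tested in the main fit because its filter also took in the other venule libraries.

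The miRNAs with the smallest p in each direction were miR-874-5p, miR-15b-5p, miR-99a-3p, miR-365-2-5p and miR-1968-5p among the higher ones, and miR-30c-1-3p, miR-199b-5p, miR-324-3p, miR-574-5p and miR-433-3p among the lower ones. All 10 missed the threshold. The RefSeq mature sequences (GRCm38.p6) of the 8 of these 10 that could be matched are shown 5′ to 3′ to let their seeds be compared. Capitals mark the seed, bases 2 to 8.
miR-15b-5p: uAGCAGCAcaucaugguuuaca
miR-99a-3p: cAAGCUCGuuucuaugggucu
miR-365-2-5p: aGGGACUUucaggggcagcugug
miR-1968-5p: uGCAGCUGuuaaggaugguggacu
miR-30c-1-3p: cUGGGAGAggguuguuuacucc
miR-324-3p: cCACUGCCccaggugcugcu
miR-574-5p: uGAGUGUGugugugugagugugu
miR-433-3p: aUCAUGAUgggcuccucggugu
These 8 miRNAs have 8 distinct seeds, so no seed was shared among them. Their genes are spread over the genome. In GRCm38.p6 with GENCODE annotation, miR-15b-5p lies at chr3:69009775-69009796 on the plus strand, in an intron of Smc4. miR-30c-1-3p lies at chr4:120769546-120769567 on the minus strand, in an intron of Nfyc. miR-1968-5p lies in an intron of Grtp1 (chr8:13189068-13189091, minus strand), miR-574-5p in an intron of Fam114a1 (chr5:64970328-64970350, plus strand) and miR-99a-3p in an intron of the long noncoding host gene Mir99ahg (chr16:77598977-77598997, plus strand). miR-324-3p overlaps an exon of Dvl2 (chr11:70012095-70012114, plus strand). miR-433-3p lies opposite an exon of the imprinted gene Rtl1 (chr12:109591781-109591802, plus strand), and miR-365-2-5p lies outside annotated genes (chr11:79726428-79726450, plus strand).

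The libraries were shallow, and the depth of the groups overlapped. miRNA counts were 31517, 110052, 40957 and 50686 in the CLP libraries and 82285, 33764, 34969 and 75972 in the sham libraries (exact two-sided permutation test of the means, p = 0.943; the smallest p that 4 against 4 allows is 0.0286). miRNAs took 1.08% to 2.20% of all counts in CLP and 0.894% to 2.25% in sham libraries (exact permutation test, p = 0.686). The rest went to 10 entries that name no miRNA and were left out. Levels are given as CPM, counts scaled to the tested miRNAs of a library with TMM normalization, so they are not exact shares of the pool. A count of 0 in a single library allows up to 30.3 to 107.8 CPM (3 counts), which like every interval on counts below covers counting error only. Pearson's r of log2 CPM across the 285 miRNAs, which are not independent replicates, was 0.796 to 0.858 between CLP libraries, 0.810 to 0.859 between sham libraries and 0.800 to 0.875 between a CLP and a sham library. By these correlations no library stood apart.

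**Figure D1:**
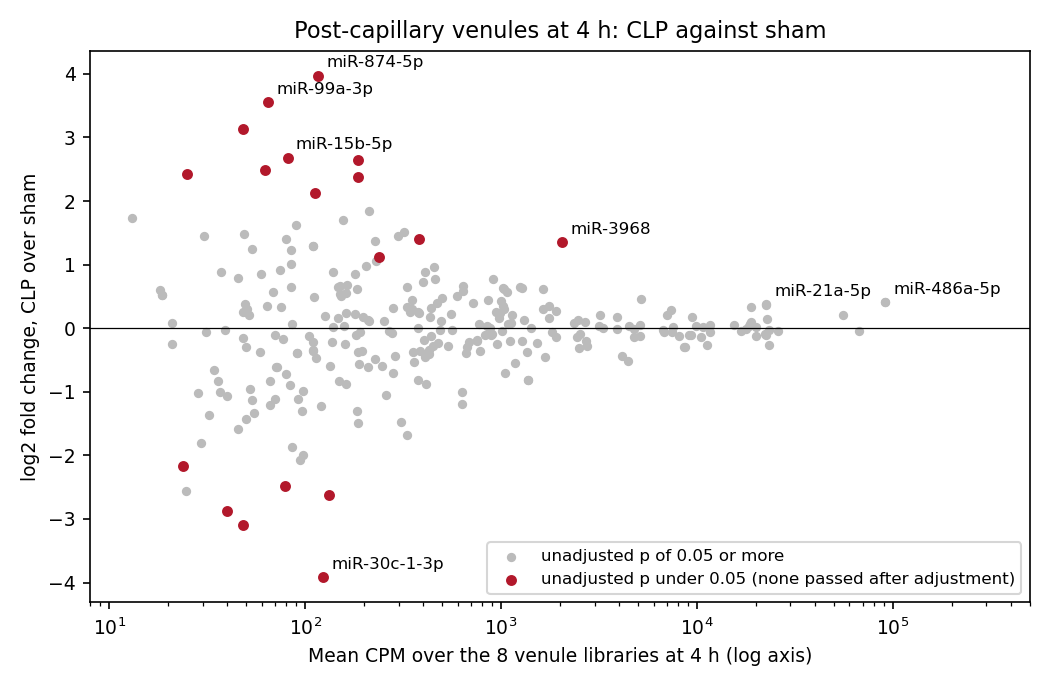
Log2 fold change (CLP over sham venules at 4 h, 4 mice each) against mean CPM over the 8 libraries (log axis), with 1 point for each of the 285 miRNAs tested. Red points have an unadjusted p under 0.05; 0 passed after adjustment, and every red point but miR-3968 lies below 1000 CPM.

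The 5 leading higher miRNAs were seen in few reads. miR-874-5p had 0, 66, 1 and 13 counts in CLP libraries, against 1, 0, 0 and 0 in sham libraries. Both groups hold libraries at 0 or 1, and 2 CLP libraries carry the difference. Over the summed counts the ratio was 83.3 (95% exact interval 14.5 to 3331), and the edgeR adjusted p was 0.062, the smallest of the comparison. Healthy venules had 3, 20, 2 and 0 counts, which overlap both groups. Its other strand, miR-874-3p, had 934, 1594, 1599 and 2942 CPM in CLP and 697, 3757, 1397 and 1604 CPM in sham libraries, a log2 fold change of -0.06 (SE 0.42).

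miR-15b-5p belongs to the miR-15/16 family, known to repress cell-cycle genes and Bcl2. It had 5, 10, 3 and 14 counts in CLP libraries, against 0, 0, 1 and 2 in sham libraries. All 4 CLP libraries lay above all 4 sham libraries, with means of 150 ± 81.2 CPM in CLP libraries and 12.6 ± 14.6 CPM in sham libraries (SD, n = 4 each). The ratio of summed counts was 11.1 (95% exact interval 3.47 to 56.7), with an edgeR adjusted p of 0.295. The healthy mean lay between, at 36.4 ± 20.5 CPM. The 5 other tested miRNAs with the same seed, AGCAGCA, had overlapping groups. miR-16-5p, which is the abundant member and is made from the same transcript as miR-15b at 1 of its 2 genes, had a log2 fold change of 0.33 (SE 0.20, 95% interval -0.09 to 0.75). For miR-15a-5p it was 0.16, for miR-322-5p 0.47, for miR-195a-5p -0.004 and for miR-497a-5p -0.15, each with an interval that includes 0.

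miR-99a-3p, the passenger strand of the abundant miR-99a-5p, had 0, 26, 8 and 4 counts in CLP libraries and 0 in all 4 sham libraries. Against a floor of 3 counts over the sham group it was at least 13.2-fold higher (edgeR adjusted p = 0.32). Healthy libraries had 3, 0, 2 and 1 counts. Its partner miR-99a-5p had a log2 fold change of -0.26 (SE 0.20). miR-365-2-5p had 12, 26, 0 and 34 counts in CLP libraries and 15, 0, 0 and 0 in sham libraries, so the groups overlap (log2 fold change 2.38, SE 1.04; adjusted p = 0.735 in edgeR). Healthy libraries had 142 to 701 CPM of it, within the CLP range of 0 to 606 CPM but for the highest. Without the first sham library, edgeR called it higher (adjusted p = 0.0368). miR-365-3p, the main strand of both miR-365 genes, had a log2 fold change of -0.28 (SE 0.57). miR-1968-5p had 0, 0, 13 and 5 counts in CLP libraries and 0 in all sham libraries, at least 6.25-fold higher against the floor (edgeR adjusted p = 0.735).

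**Figure D2:**
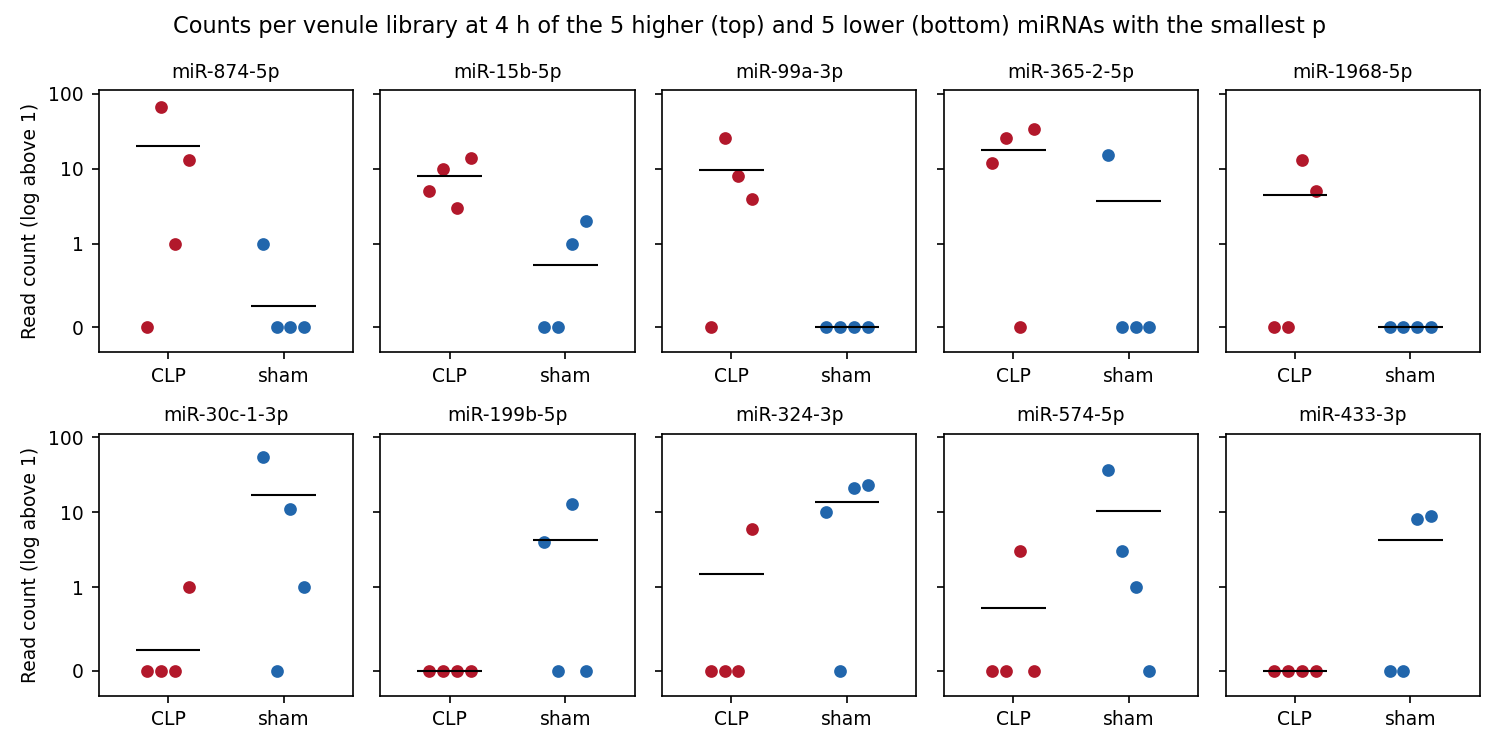
Read counts in each venule library at 4 h (log axis above 1, linear from 0 to 1), CLP in red and sham in blue, for the 5 higher (top) and 5 lower (bottom) miRNAs with the smallest p; bars are means. Only miR-15b-5p has all 4 CLP libraries above all 4 sham libraries.

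The 5 leading lower miRNAs were as sparse. miR-30c-1-3p, the passenger strand of 1 of the 2 miR-30c genes, had 0, 0, 0 and 1 counts in CLP libraries, against 55, 0, 11 and 1 in sham libraries. The second sham library is at 0 like the CLP libraries, so the groups overlap. The ratio of summed counts, CLP over sham, was 0.0155 (95% exact interval 0.000388 to 0.0896), with an edgeR adjusted p of 0.148. Healthy venules had 0, 8, 6 and 4 counts. miR-30c-2-3p, with the same seed, had 1289 ± 389 CPM in CLP and 866 ± 198 CPM in sham venules, and the main strand miR-30c-5p had a log2 fold change of 0.20 (SE 0.30).

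miR-199b-5p, of a family known from fibroblasts and other mesenchymal cells, had 0 counts in all CLP libraries, against 4, 0, 13 and 0 in sham libraries, at least 5.44-fold lower against the floor. miR-324-3p had 0, 0, 0 and 6 counts in CLP and 10, 0, 21 and 23 in sham libraries, a ratio of 0.116 (95% exact interval 0.0407 to 0.269). miR-574-5p had 0, 0, 3 and 0 counts in CLP and 37, 3, 1 and 0 in sham libraries. The first sham library holds most of its reads. miR-433-3p had 0 counts in all CLP libraries, against 0, 0, 8 and 9 in sham libraries, again at least 5.44-fold lower. For all 4 of these the groups overlap at 0 or share values near it, and the edgeR adjusted p was 0.735. For the other strands, the log2 fold change was -0.37 (SE 1.3) for miR-324-5p and -0.40 (SE 0.62) for miR-574-3p. miR-199b-3p cannot be told apart from miR-199a-3p, since both have the same value in each library, with a log2 fold change of -0.82 (SE 0.49).

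Of the 18 miRNAs with an unadjusted p under 0.05, miR-3968 was the most abundant; it is described here because of its level, which was seen before it was chosen. Its gene lies opposite an exon of Trim80 (chr11:115447969-115447989, minus strand).
miR-3968: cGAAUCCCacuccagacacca
It had 5677, 676, 2491 and 2924 CPM in CLP libraries, against 562, 2052, 1630 and 382 CPM in sham libraries. The second CLP library lies within the sham range, and the other 3 lie above it. The log2 fold change was 1.35 (SE 0.60, 95% interval 0.11 to 2.59, edgeR adjusted p = 0.735). Healthy venules spanned 309 to 3627 CPM, which takes in 7 of the 8 values at 4 h.

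The abundant miRNAs had the narrowest intervals. The 10 miRNAs with the largest shares took 41.2% to 51.0% of miRNA counts in CLP and 41.4% to 45.9% in sham venules. These sums hold both miR-486a-5p and miR-486b-5p, whose reads may have been counted for both. For the 26 miRNAs with a mean of 10000 CPM or more, the largest absolute log2 fold change was 0.41, and for 23 of them the 95% interval lay within a 2-fold change in either direction. From 1000 to 10000 CPM this held for 44 of 65, from 100 to 1000 CPM for 6 of 124, and below 100 CPM for 0 of 70. The median interval extended 0.45 to either side on the log2 scale in the most abundant class, and 1.56 between 100 and 1000 CPM. Intervals are not adjusted for the number of miRNAs. In 53 of the 285, too few counts in a group left no interval. Of these, 49 lay below 100 CPM and 4 between 100 and 1000 CPM, and they count above as not within a 2-fold change.

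**Figure D3:**
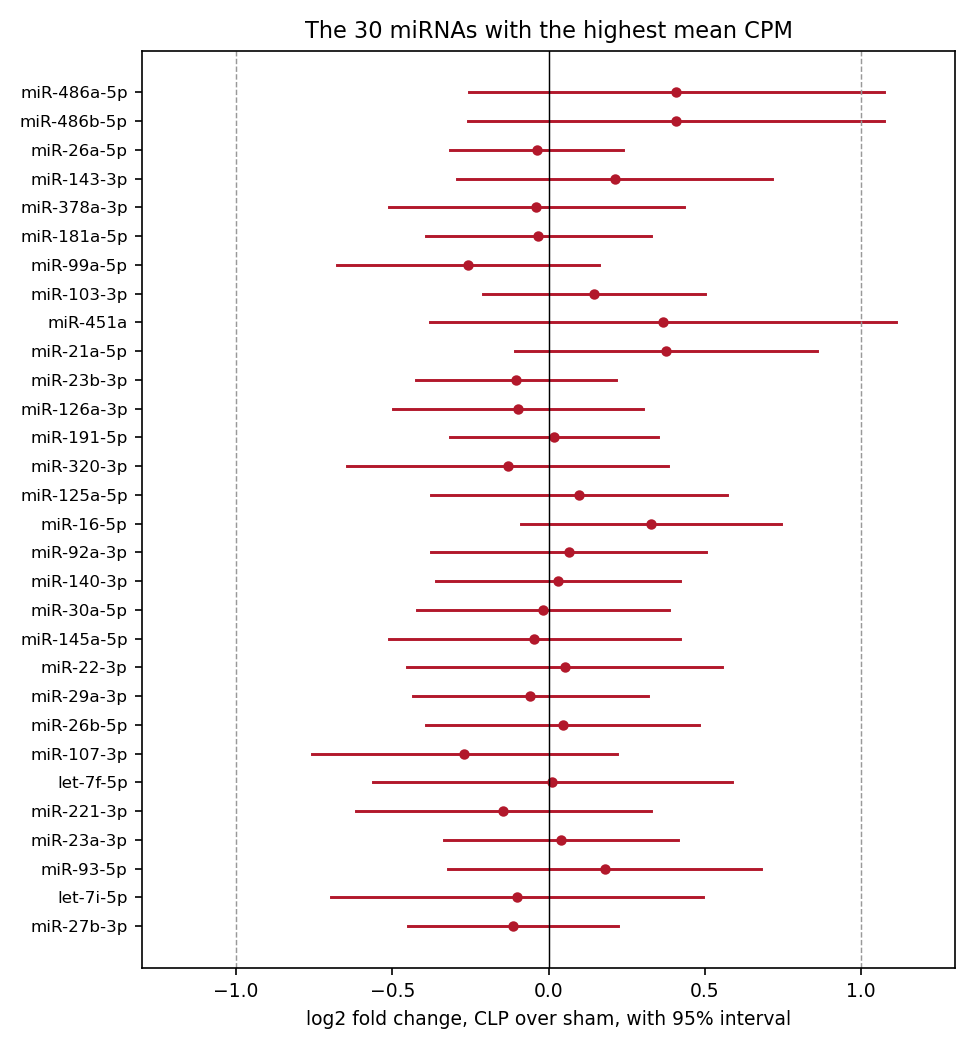
Log2 fold change (CLP over sham venules at 4 h) with its 95% interval for the 30 miRNAs with the highest mean CPM over the 8 libraries; dashed lines mark a 2-fold change. Every interval includes 0, and miR-486a-5p, miR-486b-5p and miR-451a have among the widest.

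The largest shares of the pool were those of miR-486a-5p, miR-486b-5p, miR-26a-5p and miR-143-3p. The cells these reads came from were not tested. miR-486a-5p and miR-486b-5p, near-identical products of neighbouring genes known from red blood cells, took 9.96% ± 2.93 and 9.95% ± 2.92 of miRNA counts in CLP venules and 8.12% ± 2.43 for each in sham venules (SD, n = 4). Their values were nearly equal in each library, so reads may have been counted for both. miR-26a-5p took 6.53% ± 0.715 in CLP and 7.17% ± 1.15 in sham venules, with a log2 fold change of -0.04 (95% interval -0.31 to 0.24). miR-143-3p of smooth muscle took 5.87% ± 0.616 in CLP and 5.46% ± 1.1 in sham venules. miR-378a-3p, miR-181a-5p, miR-99a-5p, miR-103-3p, miR-451a and miR-21a-5p completed the 10 with the highest mean CPM, at 2.06% to 2.55% in CLP and 2.05% to 2.75% in sham venules. None of the 10 had an interval that excludes 0.

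miR-21a-5p, known as raised in injured and septic kidney, had 23678, 28728, 29179 and 19845 CPM in CLP libraries, against 18563, 16471, 17177 and 25967 CPM in sham libraries.
miR-21a-5p: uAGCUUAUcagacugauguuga
The fourth sham library lies above 2 of the CLP libraries, so the groups overlap. The log2 fold change was 0.38 (SE 0.24, 95% interval -0.11 to 0.86), with an adjusted p of 0.857 in edgeR. Healthy venules had 18700 to 23456 CPM. Its passenger strand miR-21a-3p had 4 counts over the CLP libraries and 19 over the sham libraries.

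No endothelial miRNA passed, and the fold changes lay near 0. In the endothelial list, 9 of 11 miRNAs were tested, and 3 had a log2 fold change above 0 and 6 below, with a median of -0.03 and a range of -0.14 to 0.21. miR-126a-3p, by which endothelium is commonly recognised, is encoded within the endothelial gene Egfl7.
miR-126a-3p: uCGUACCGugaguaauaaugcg
It had 28420, 15338, 20290 and 21610 CPM in CLP libraries, against 20433, 20950, 22791 and 27460 CPM in sham libraries. Both the highest and the lowest of the 8 values are CLP libraries. The log2 fold change was -0.10 (SE 0.20, 95% interval -0.50 to 0.30). miR-23b-3p had -0.10 and miR-221-3p -0.14. The summed level of the list ran from 76880 to 97010 CPM in CLP and from 79335 to 100266 CPM in sham libraries. The smooth muscle list (4 of 5 tested) had a median of -0.002, with miR-143-3p at 0.21 (95% interval -0.29 to 0.72) and miR-145a-5p at -0.04 (-0.51 to 0.42). Its summed level ran from 61602 to 95681 CPM in CLP and from 60479 to 83823 CPM in sham libraries. Defining markers of endothelium and of smooth muscle were thus present in all 8 libraries. In bulk tissue, fewer cells of a type and less RNA per cell cannot be told apart.

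Red blood cell miRNAs had a median log2 fold change of 0.41 over 7 tested members, with 5 above 0 and 2 below, and 0 passed. The near-equal miR-486a-5p and miR-486b-5p are both among those above 0, and the median is the value of miR-486b-5p. Reads counted for both would also enter the summed level more than once. Their summed level was 320457, 315320, 152727 and 162270 CPM in CLP libraries, against 253758, 189041, 136950 and 138940 CPM in sham libraries. The first and second CLP libraries lay above all sham libraries, and the other 2 lay within the sham range. miR-451a, which is matured by Ago2 without Dicer in red blood cells, had 42613, 25216, 17503 and 15922 CPM in CLP libraries and 19956, 20979, 13943 and 23574 CPM in sham libraries (log2 fold change 0.37, SE 0.36; adjusted p = 0.988 in edgeR). miR-144-3p, from the same transcript, had 0.62 (SE 0.36) and miR-144-5p -0.20 (SE 0.36). Without the first CLP library the log2 fold change of miR-451a was 0.02, and the median of the 7 red blood cell miRNAs lay between 0.22 and 0.66 with any 1 library left out. The part of these miRNAs in the other differences was not tested.

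No leukocyte miRNA passed. Of 7 listed, 5 were tested, with a median log2 fold change of 0.16, 3 above 0 and 2 below. miR-223-3p, of neutrophils and other myeloid cells, had 359, 444, 388 and 428 CPM in CLP libraries, against 134, 86.7, 388 and 407 CPM in sham libraries. The CLP libraries were alike, and 2 of the 4 sham libraries lay at their level (log2 fold change 0.64, SE 0.73). miR-142a-5p, of blood cells in general, had 790, 676, 708 and 71.3 CPM in CLP libraries, against 330, 57.8, 129 and 271 CPM in sham libraries (log2 fold change 1.4, SE 0.61, unadjusted p = 0.0258, edgeR adjusted p = 0.735). The fourth CLP library was low and lay within the sham range. The other strand, miR-142a-3p, pointed the other way at -0.70 (SE 0.66), and healthy venules had 284 to 526 CPM of miR-142a-5p. The best covered member, miR-342-3p, had 2910, 2462, 2102 and 2336 CPM in CLP libraries and 2921, 1618, 3466 and 2430 CPM in sham libraries (log2 fold change -0.09, 95% interval -0.70 to 0.52). miR-150-5p of lymphocytes was at 0.16 (SE 0.48), with the first CLP library highest at 4132 CPM; without it the value was -0.55 and the median of the list -0.17. The summed level of the list ran from 3940 to 8408 CPM in CLP and from 3814 to 6053 CPM in sham libraries.

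No inflammation miRNA passed at 4 h. Of 14 listed, 10 were tested, with a median log2 fold change of -0.09, 4 above 0 and 6 below, and 0 passed. miR-146a-5p had 1581, 1514, 1097 and 1533 CPM in CLP libraries, against 1039, 809, 1681 and 2171 CPM in sham libraries, which enclose the CLP values. Its log2 fold change was 0.0003 (SE 0.31, 95% interval -0.63 to 0.63). miR-155-5p had 71.3 to 297 CPM in CLP and 0 to 388 CPM in sham libraries (0.11, 95% interval -1.48 to 1.70), an interval that does not exclude a 2-fold change either way. miR-125b-5p was at -0.29 (95% interval -0.85 to 0.28) and miR-132-3p at 0.13 (-0.82 to 1.07). The member with the smallest p was miR-132-5p, with 0 counts in all CLP libraries and 0, 3, 4 and 0 in sham libraries. In the injury and fibrosis list, 7 of 9 were tested, 3 above 0 and 4 below, with a median of -0.28. Beside miR-21a-5p it holds miR-214-3p (-0.28, SE 0.29), miR-199a-5p (0.07, SE 0.32) and miR-34a-5p (0.96, SE 0.65), a p53 target. miR-210-3p, the miRNA most closely tied to hypoxia, had 71.9, 565, 228 and 89.1 CPM in CLP and 403, 260, 259 and 432 CPM in sham libraries (-0.44, SE 0.66).

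No epithelial miRNA passed; the source of these reads was not tested. In the tubular list, all 5 tested of 7 had a log2 fold change above 0 (median 0.32, 0 passed), and its summed level ran from 3090 to 6169 CPM in CLP and from 2430 to 4941 CPM in sham libraries. The most abundant of them, miR-192-5p, had a log2 fold change of 0.10 (SE 0.33), which became -0.25 without the fourth CLP library. miR-204-5p was at 0.18 (SE 0.62), and between -0.16 and 1.73 with 1 library left out, the highest without the second sham library (edgeR adjusted p = 0.259). miR-194-5p was at 1.02 (SE 0.98), and at 2.48 without the fourth sham library. The median of the list lay between 0.08 and 0.81 with 1 library left out. In the miR-200 family, which keeps epithelial cells in their state by repressing Zeb1 and Zeb2, 7 of 10 were tested and 6 were above 0, with a median of 0.32. miR-429-3p had 1725, 4329, 3290 and 3869 CPM in CLP libraries and 3043, 4652, 3053 and 2492 CPM in sham libraries (0.01, SE 0.30). miR-141-3p had 252, 424, 457 and 178 CPM in CLP and 85.5, 173, 181 and 148 CPM in sham libraries (log2 fold change 1.13, SE 0.58, unadjusted p = 0.0498, edgeR adjusted p = 0.735), and 3 of 4 CLP libraries lay above the sham range. The summed level of the family ran from 3737 to 11776 CPM in CLP and from 6286 to 9391 CPM in sham libraries. The miR-30 family (9 of 12 tested, median -0.13) had its most abundant member, miR-30a-5p, at -0.02 (95% interval -0.42 to 0.39).

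**Figure D4:**
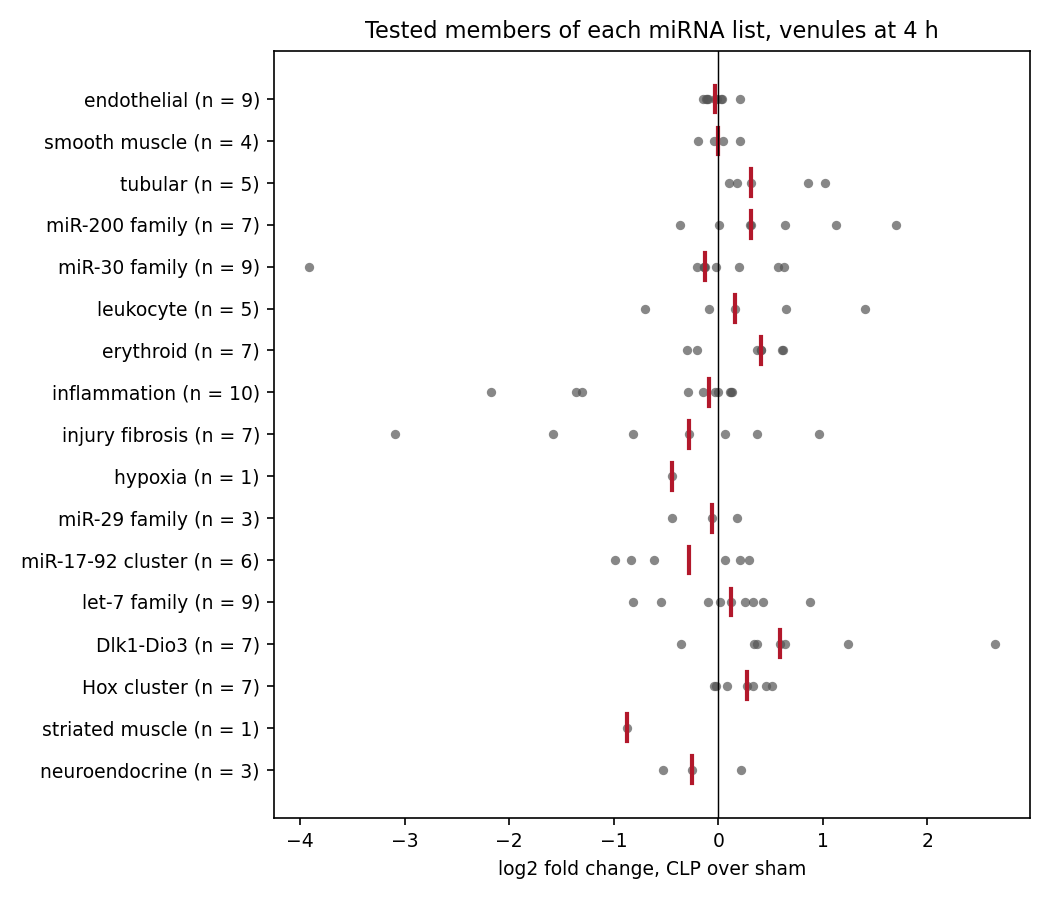
Log2 fold change (CLP over sham venules at 4 h) of each tested member of 17 miRNA lists; n is the number tested and the red bar is the median. The endothelial and smooth muscle members lie between -0.19 and 0.21, and the lists with members beyond 2 in either direction hold the sparse miR-30c-1-3p, miR-199b-5p, miR-132-5p and miR-541-5p.

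The remaining lists showed 0 calls as well. The let-7 family had a median of 0.13 over 9 tested members, the Hox cluster miRNAs (miR-10, miR-196, miR-615) 0.28 over 7, the miR-29 family -0.06 over 3, the miR-17-92 cluster -0.28 over 6 and the neuronal and endocrine list -0.25 over 3. The miRNAs of the imprinted Dlk1-Dio3 region had a median of 0.59 over 7 tested, which became -0.51 without the first CLP library. Their summed level was 4815, 565, 1097 and 553 CPM in CLP libraries, against 1344, 144, 750 and 1357 CPM in sham libraries, so the first CLP library stood above the rest. The member at the median, miR-127-3p, was at -2.03 without that library. miR-541-5p of this region had 26, 20, 0 and 10 counts in CLP and 0, 0, 4 and 5 in sham libraries, a ratio of 6.48 (95% exact interval 3.18 to 14.9; edgeR adjusted p = 0.735). miR-433-3p, described above, lies in the same region but was not on the list and pointed the other way. miR-133a-3p of striated muscle was at -0.88 (SE 0.76), and miR-122-5p of hepatocytes had 0 counts in all 8 libraries.

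Sham operation at 4 h was set against healthy venules to place the level with which CLP was compared. Of 285 miRNAs, 0 passed in edgeR and 25 had an unadjusted p under 0.05 (8.77%). let-7c-5p was lowest in p: it had 2369 ± 616 CPM in sham and 4964 ± 1544 CPM in healthy venules (SD, n = 4 each), for a log2 fold change of -1.06 (SE 0.27; adjusted p = 0.123 in edgeR), and DESeq2 called it lower (adjusted p = 0.0244). The CLP level at 4 h, 2588 ± 555 CPM, was close to that of sham. let-7a-5p, which differs little from let-7c-5p in sequence and could share its reads, had 535 ± 387 CPM in CLP, 283 ± 218 CPM in sham and 895 ± 366 CPM in healthy venules.
let-7a-5p: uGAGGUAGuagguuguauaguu
let-7c-5p: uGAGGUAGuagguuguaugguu
The log2 fold change of let-7a-5p was -1.59 (SE 0.49; adjusted p = 0.204 in edgeR) in sham against healthy venules and 0.88 (SE 0.50) in CLP against sham venules. miR-30b-5p was higher in sham venules by 1.63 (SE 0.48; adjusted p = 0.204 in edgeR), a call with DESeq2 (adjusted p = 0.0244). miR-874-5p, the leading miRNA of CLP against sham, had 3.05 ± 6.11 CPM in sham and 97.1 ± 112 CPM in healthy venules (edgeR adjusted p = 0.204). It was chosen because its sham values were near 0, and both comparisons use these sham libraries, so this value is a description.

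The CLP effect at 4 h was then set against its mean at 24 h and 72 h in the same venules. Of 285 miRNAs, 0 passed and 21 had an unadjusted p under 0.05 (7.37%), with a smallest edgeR adjusted p of 0.25. miR-21a-5p is the example with the most reads. It had 25357 ± 4441 CPM in CLP and 19544 ± 4369 CPM in sham venules at 4 h, 63209 ± 27714 CPM in CLP and 34415 ± 2674 CPM in sham venules at 24 h, and 67654 ± 16062 CPM in CLP and 31750 ± 8460 CPM in sham venules at 72 h (SD, n = 4 each). Its log2 fold change was 0.38 at 4 h, 0.88 (SE 0.24, edgeR adjusted p = 0.263) at 24 h and 1.09 (SE 0.24, edgeR adjusted p = 0.00832) at 72 h. The 4 h effect minus the mean of the later effects was -0.61 on the log2 scale (SE 0.29, unadjusted p = 0.0445; adjusted p = 0.634 in edgeR). At 24 h 0 of 285 passed (0%), and at 72 h 4 passed (1.4%): miR-21a-5p was higher, and miR-6240, miR-2137 and miR-8109 were lower. Without the 72 h sham library with the fewest miRNA counts, 0 passed, and miR-21a-5p was at 1.00 (edgeR adjusted p = 0.0762). The log2 fold change went from -7.15 to 0.09 for miR-6240, from -6.38 to -0.04 for miR-2137 and from -10.5 to 0.64 for miR-8109. The lower calls at 72 h thus rested on that library. Libraries of healthy and 4 h mice also differ from the later ones in the style of their column names, so a level at 4 h cannot be told apart from that difference, while each CLP effect lies within a style.

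**Figure D5:**
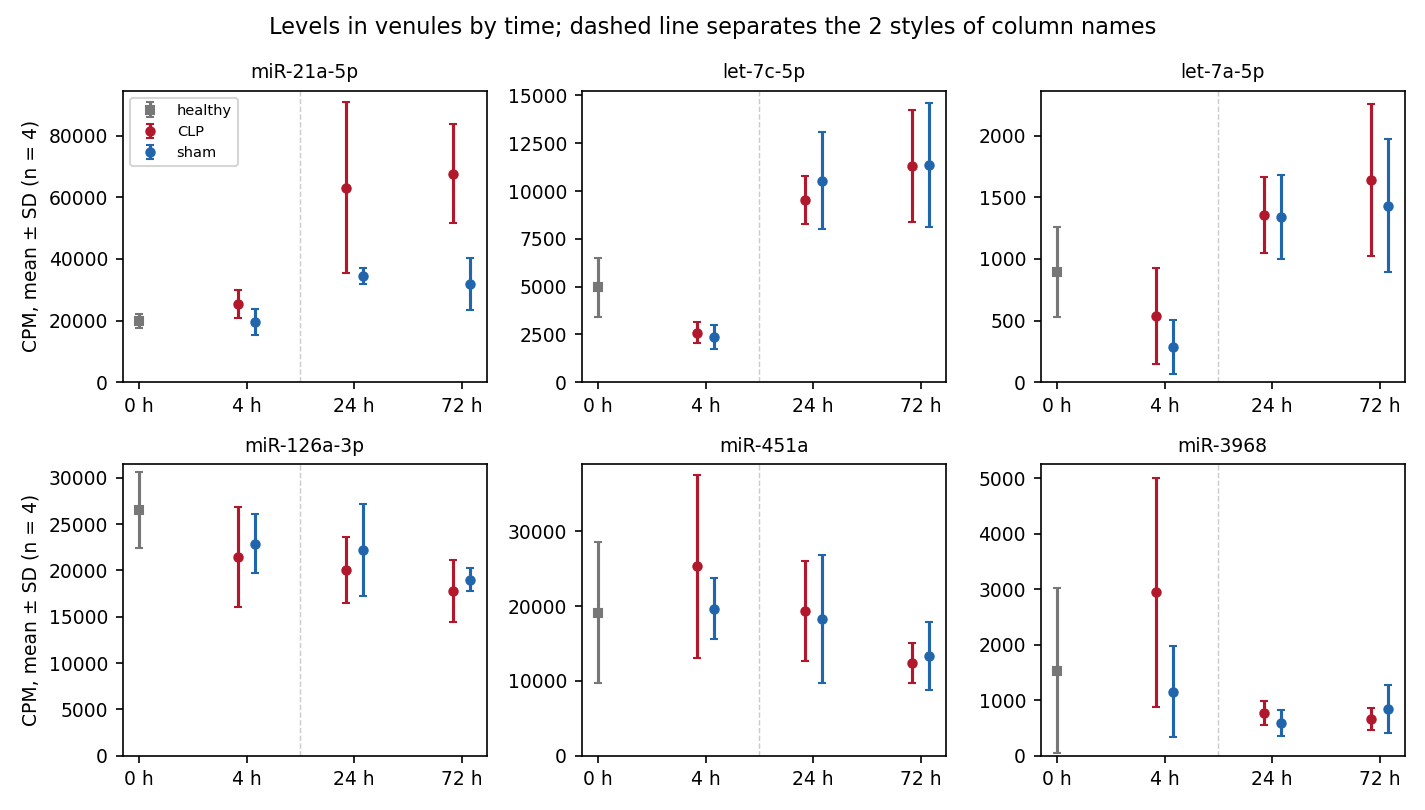
CPM (mean ± SD, 4 mice a group) in venules by time for 6 miRNAs, CLP in red, sham in blue and healthy mice at 0 h in grey; the dashed line separates libraries with different styles of column names. For miR-21a-5p the mean ± SD of CLP and sham venules overlap at 4 h and 24 h and do not overlap at 72 h.

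Venules were last compared with the other microdissected vessels of the same 8 mice at 4 h. In a fit with the mouse as a block, the CLP effect in venules differed from the mean of arterioles, glomeruli and peritubular capillaries for 0 of 265 tested miRNAs (0% called), with 9 at an unadjusted p under 0.05 (3.4%); DESeq2 called 1 higher and 1 lower, both with groups at 0. The smallest p was that of miR-429-3p (edgeR adjusted p = 0.501). Scaled within each compartment, it had 3315 ± 1177 CPM in CLP and 3403 ± 880 CPM in sham venules, 6223 ± 1578 and 4093 ± 957 CPM in CLP and sham peritubular capillaries, and 111 ± 83.9 CPM in CLP arterioles, where all 4 sham libraries were at 0. Its level in glomeruli is not given here, so these values do not show the whole contrast. miR-15b-5p had 150 ± 84.1 CPM in CLP and 13.1 ± 15.1 CPM in sham venules. In glomeruli it had 37.8 ± 40.5 CPM in CLP and 55.3 ± 46.9 CPM in sham mice. In whole kidney it had 53.5 ± 10.6 CPM in CLP and 61.7 ± 13.0 CPM in sham mice. Its levels in arterioles and peritubular capillaries are not given here. It was too sparse in the other vessels to be tested for a difference. The difference of mean log2 CPM of miR-3968, CLP minus sham, was 1.24 in venules, 1.23 in glomeruli, 1.61 in peritubular capillaries and 0.12 in arterioles, and the test of the venule effect against the others gave -0.23 (SE 1.00, edgeR adjusted p = 1). The differences were scaled within each compartment and the test within the joint fit, so their signs can differ. miR-21a-5p differed between these compartments in its CLP effect by -0.06 (SE 0.26, 95% interval -0.59 to 0.46), and miR-126a-3p by -0.30 (SE 0.21, 95% interval -0.73 to 0.13).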

How the data were processed

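The authors deposited raw counts, whole reads per mature miRNA and library, and each of the 140 columns matched a sample by name. Per the labels, libraries were made with a RealSeq kit. The submitters' processing notes name cutadapt 3.3, Bowtie 1.3.0, FastQC 0.11.9 and MultiQC 1.10, and the builds GRCm38.p6 and GRCm39. The sources used here do not name the counting tool or say how reads that fit several miRNAs were treated, so near-identical miRNAs are uncertain. The 10 entries whose names start with # name no miRNA, and their content is not stated. They took 97.8% to 99.1% of counts in the 8 libraries and entered neither library sizes nor tests. No 2 libraries had identical counts.

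Groups, times and replicate numbers came from the labels, which call the replicates biological. edgeR 4.0.16 (R 4.3.3; TMM, filterByExpr with minimum count 10 and total 15, quasi-likelihood F test, prior count 2) was fitted to the 28 venule libraries in 7 groups. The compartment fit used 32 libraries. P-values are two-sided and Benjamini-Hochberg adjusted over all miRNAs tested, with a threshold of 0.05. Standard errors came from the fitted weights and dispersions and were withheld where very large or not estimable. In CLP against sham at 4 h they were also withheld where a group had under 10 counts. Ratios of summed counts have exact binomial 95% intervals, and a group at 0 was set to a floor of 3 counts. Scripts were tested on simulated data. Alternatives were DESeq2 1.42.0, limma 3.58.1 (voom), other scalings, no filter, another prior count, blocks, fewer libraries in the fit, and each replicate left out. Named miRNAs were the 5 with the smallest p in each direction, since none passed, the 10 with the highest mean CPM, examples from 18 lists, and their other strands. The members and lists were chosen with earlier results of these data known. RefSeq mature sequences matched 242 of the 285 tested miRNAs.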

Additional observations from a re-analysis of the deposited data

Results flagged for a closer look

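By Dixon's 95% criterion, the highest or lowest of 4 libraries stood apart from the other 3 in 14 of 105 groups examined. The groups held the values of 55 measures: the CPM of miRNAs, the summed CPM of lists, the miRNA counts and the miRNA share of all counts. The criterion's chance rate, about 1 in 20 groups, is for independent groups of normally distributed values and does not apply here. A group with reads in only 1 library meets the criterion at any level. Some measures share miRNAs, and some miRNAs were picked by their p in these libraries. Whether 14 exceeds chance therefore cannot be told. In CLP venules at 4 h, miR-378a-3p was low in replicate 1 (18144 CPM, the others 27345 to 28456 CPM), and the Dlk1-Dio3 list was high in the same library (4815 CPM, the others 553 to 1097 CPM). Replicate 4 was high for miR-192-5p (4582 CPM, the others 1976 to 2399 CPM) and so for the tubular list (6169 CPM, the others 3090 to 3245 CPM). Among sparse miRNAs, 1 CLP library alone had reads of miR-30c-1-3p (17.8 CPM, replicate 4), miR-324-3p (107 CPM, replicate 4) and miR-574-5p (68.5 CPM, replicate 3).

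In sham venules at 4 h, miR-99a-5p was low in replicate 1 (18648 CPM, the others 27085 to 28052 CPM). miR-204-5p was high in replicate 2 (1271 CPM, the others 49.3 to 181 CPM), miR-194-5p in replicate 4 (160.4 CPM, the others 0 to 25.9 CPM) and miR-199b-5p in replicate 3 (336 CPM, the others 0 to 48.9 CPM). Replicate 1 alone had reads of miR-874-5p (12.2 CPM) and miR-365-2-5p (183 CPM), and replicate 4 alone had reads on the hepatocyte list (49.3 CPM, 4 counts of miR-122-3p).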

How the results depend on the processing

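Across alternatives, 166 of 192 recomputed counts and depth values were scored the same as in the main fit. A count of calls that stayed at 0 was scored as the same, and a count could not reverse. This number is therefore not a measure of stability. Of 112 named miRNAs, 65 kept their sign in every alternative for CLP against sham at 4 h that tested them. All 10 leading miRNAs were among these 65, but the fit to the 8 libraries alone did not test them. The 10 were picked by their p in these same libraries, and a group with 0 counts throughout nearly fixes the sign. Their sign is therefore no support for a difference. DESeq2 called 1 higher and 1 lower in CLP against sham at 4 h, 1 higher (miR-30b-5p) and 1 lower (let-7c-5p) in sham against healthy, and 1 higher (miR-1968-5p) and 1 lower (miR-363-3p) between compartments. With no filter (754 tested), 1 was higher (miR-874-5p, adjusted p = 0.0235) and 1 lower (miR-8109, adjusted p = 0.00196) in CLP against sham at 4 h, 1 higher (miR-2137) and 1 lower (miR-205-5p) in sham against healthy, and 3 higher (miR-6240, miR-2137, miR-5119) at 4 h against the later times. Without the smallest 72 h sham library, 1 was lower in sham against healthy (let-7c-5p, adjusted p = 0.0494), and at 72 h 0 were higher and 0 lower. Leaving it out of the filtered fit took the 72 h log2 fold change of miR-6240 from -7.15 to 0.09. That of miR-2137 went from -6.38 to -0.04. The no-filter calls of both at 4 h against the later times include their 72 h effect with that library.

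Leaving out a replicate gave 0 to 1 higher and 0 lower in CLP against sham at 4 h. The call was miR-874-5p without CLP replicate 1 (adjusted p = 0.0121) or CLP replicate 3 (adjusted p = 0.0229), and miR-365-2-5p without sham replicate 1. Sham against healthy ranged from 0 to 1 higher and from 0 to 3 lower (miR-30b-5p higher without healthy replicate 4; let-7c-5p lower without healthy replicate 3; let-7a-5p, let-7c-5p and miR-365-2-5p lower without sham replicate 1), and 4 h against later from 0 to 1 higher (miR-365-2-5p without sham replicate 1, adjusted p = 0.0488). The difference in miRNA share of counts ranged from -0.0464 to 0.405 percentage points (0.155 with all 8 libraries), and the log2 ratio of mean miRNA counts from -0.467 to 0.273 (0.04 with all 8). The cause of these shifts was not tested.

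Replicate numbers did not pair the samples: same-numbered CLP and sham deviations had correlations of -0.154, 0.0752, -0.201 and -0.028, and 0 of 4 were best with their own number. With the replicate block, 0 were higher and 0 lower in CLP against sham (smallest adjusted p = 0.251, 14 unadjusted), in sham against healthy and in 4 h against later. Scaling to the # entries moved the median of all miRNAs to 0.06 in CLP against sham, 0.29 in sham against healthy and -0.44 in 4 h against later, with 0 calls in each. The limma voom fit gave 8 unadjusted p under 0.05 in CLP against sham, against 18 in edgeR. Below 100 CPM, 0 of 70 miRNAs had a 95% interval within a 2-fold change, but 49 of these 70 had no interval at all. Counting depth and the spread between mice were not separated. The healthy, 24 h and 72 h replicates left out and the fits without the smallest 72 h sham library were chosen after seeing the data.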
